A study of Sus scrofa with 9 samples.

Results

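The transcripts described here are the RefSeq annotated non-coding RNAs of porcine valvular interstitial cells (PVICs), taken as every row whose identifier begins with XR_ (predicted) or NR_ (curated). They were 9014 of the 35602 rows of the count table, and 9014 of its 9888 non-coding transcript rows. The other rows were 19535 genes and 6179 circular RNAs. All 9014 matched a long non-coding RNA record of the RefSeq annotation of the pig genome (Sscrofa11.1, release 106), and only 7 were NR_ records. They came from 5423 loci. Of these, 5366 were uncharacterised loci named only by a LOC number (8744 transcripts), and 57 carried a gene symbol (270 transcripts). For 56 of the 57 symbol loci the annotation held no protein product and the table no gene row, so the non-coding transcripts were the whole record of that locus.

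Long non-coding RNAs are transcribed and usually spliced like messenger RNAs but hold no long open reading frame. Many start beside the promoter of a coding gene or run antisense to one, and some act on chromatin or on neighbouring genes in cis, whereas others work as scaffolds or bind microRNAs. In cardiovascular cells, MEG3, a maternally expressed RNA of the imprinted DLK1 to DIO3 domain, is among the best studied. Valvular interstitial cells are the fibroblast-like cells of the valve leaflet, and they can turn into contractile myofibroblasts or into calcifying, osteoblast-like cells.

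The cells were isolated from wild type pig aortic valve leaflets after the surface endothelium had been scraped off, and were compared in 3 groups of 3 libraries. The control group (NC) stayed in DMEM, the OIM group received osteogenic medium with 2 mmol/L phosphate, 50 µg/mL ascorbic acid and insulin, and the bFGF group received the same medium plus 50 ng/mL basic fibroblast growth factor (bFGF). The labels give 3 days of treatment for every group, whereas the methods of the study give a shorter time for sequencing. Nothing states that replicates came from separate animals or cultures, so p-values measure the spread between these libraries, which may be technical.

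Gene rows summed to 57075793 to 64723837 counts in control, 57682710 to 67371523 in OIM and 46773376 to 48270827 in bFGF libraries. The non-coding transcripts added estimated counts equal to 0.673 to 0.735%, 0.672 to 0.680% and 0.720 to 0.774% of those sums. The labels describe a stranded kit with ribosomal RNA removal, while the methods describe poly(A) selection, and transcripts without a poly(A) tail would be under-represented by the latter. All 13 markers of valvular interstitial cells and fibroblasts exceeded 1 CPM (counts scaled to library size) in every library, with summed levels of 75170 to 80060 CPM in control, 71530 to 77240 in OIM and 40730 to 41250 in bFGF. Collagens and ACTA2 made up most of that fall, with COL1A1 at 23877 to 26113 CPM in OIM and 9734 to 10139 in bFGF. Other members were higher in bFGF libraries, among them VIM (vimentin) at 5498 to 6066 CPM in OIM and 8907 to 9067.8 in bFGF. The 8 endothelial markers summed to 72.6 to 74.4, 86.8 to 87.9 and 167 to 177 CPM. ERG made up most of that sum, and 4 of the 8 exceeded 1 CPM in every library. Leukocyte markers (1 of 6 above 1 CPM throughout) summed to 14.5 to 17.9 CPM in control, 15.5 to 16.5 in OIM and 8.78 to 9.34 in bFGF, muscle markers to 1.92 to 3.67 CPM and epithelial markers to at most 0.220 CPM. The marker sums that moved with bFGF moved with every bFGF result below, and their part in those results was not tested. On the first principal component of the 500 most variable transcripts (23.4% of variance) bFGF libraries lay at 23.6 to 31.8 and the other 6 at -21.7 to -8.37. OIM replicate 2 was the OIM library nearest to control on the second component, and its ACTA2, the smooth muscle actin of myofibroblasts, was at 6851 CPM against 9209 and 9285 in the other OIM libraries and 6609 to 6960 in control.

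To show where the transcripts start, windows from 250 bases before to 50 bases after the annotated start are given for 5 transcripts that the results turn on. MEG3 is 1 of 2 curated RNAs that fell, and its window is chr7:121656003-121656302, plus strand. The next 2 rose with bFGF: LOC100516145 (chr8:47097109-47097408, plus) and LOC102166369 (chrX:40681855-40682154, minus). The last 2 fell: LOC110261468 (chr1:132509084-132509383, minus) and LOC106506455 (chr1:21116731-21117030, minus). Capitals mark matches on either strand to the 4 motifs searched, which were the cyclic AMP response element TGACGTCA, the AP-1 site TGANTCA, the E-box CACGTG and the ETS site CCGGAAGT.
MEG3: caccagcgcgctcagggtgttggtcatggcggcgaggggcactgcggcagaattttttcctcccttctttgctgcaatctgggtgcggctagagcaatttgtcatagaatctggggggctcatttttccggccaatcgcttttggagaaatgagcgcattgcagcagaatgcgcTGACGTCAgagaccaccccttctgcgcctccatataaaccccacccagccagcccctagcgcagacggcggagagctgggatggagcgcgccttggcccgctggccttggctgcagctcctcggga
LOC100516145: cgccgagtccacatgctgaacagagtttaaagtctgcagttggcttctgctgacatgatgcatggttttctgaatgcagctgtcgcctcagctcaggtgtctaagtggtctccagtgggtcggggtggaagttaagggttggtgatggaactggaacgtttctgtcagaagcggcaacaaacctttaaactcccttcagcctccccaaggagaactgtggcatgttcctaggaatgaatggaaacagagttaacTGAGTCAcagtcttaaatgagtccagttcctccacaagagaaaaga
LOC102166369: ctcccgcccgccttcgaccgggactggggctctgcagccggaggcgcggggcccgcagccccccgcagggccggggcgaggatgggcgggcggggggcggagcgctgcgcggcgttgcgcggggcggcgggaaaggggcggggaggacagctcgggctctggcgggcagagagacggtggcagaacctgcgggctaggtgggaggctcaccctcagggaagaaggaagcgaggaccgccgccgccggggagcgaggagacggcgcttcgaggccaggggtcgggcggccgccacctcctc
LOC110261468: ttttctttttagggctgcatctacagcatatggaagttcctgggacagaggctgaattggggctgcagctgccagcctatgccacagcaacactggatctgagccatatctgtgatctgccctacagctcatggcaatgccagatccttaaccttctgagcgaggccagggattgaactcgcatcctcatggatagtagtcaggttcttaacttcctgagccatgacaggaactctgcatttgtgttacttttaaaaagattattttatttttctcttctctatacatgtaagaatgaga
LOC106506455: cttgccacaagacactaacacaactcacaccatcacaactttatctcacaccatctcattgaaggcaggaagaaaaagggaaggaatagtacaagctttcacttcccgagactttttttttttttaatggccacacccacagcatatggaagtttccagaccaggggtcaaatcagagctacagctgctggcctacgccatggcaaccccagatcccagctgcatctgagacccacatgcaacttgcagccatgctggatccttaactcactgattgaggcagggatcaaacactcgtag
The MEG3 window held TGACGTCA at bases 175 to 182, with its first base 76 bases before the start. The LOC100516145 window held TGAGTCA at bases 255 to 261, within the transcribed part. The other 3 windows held none of the 4 motifs, which says only that these letters are not there. Base composition differed widely among them. GC content was 78.3% at LOC102166369 with 6.33% of bases soft-masked as repeats, against 44.7% GC and 95.7% repeat at LOC110261468 and 47.7% GC and 74.3% repeat at LOC106506455. The windows of MEG3 and LOC100516145 were 8% and 5.33% repeat.

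Of the 9014 transcripts, 3110 had no count in any library and 1731 (from 1160 loci) passed the filter on low counts and were tested. The tested transcripts were scarce, with a median of 0.499 CPM. They also varied more between replicates than gene rows did, with a common biological coefficient of variation of 0.570 against 0.0602. The 10 most abundant held 31.99% of all estimated counts of the 9014. Estimated counts split reads among overlapping isoforms, and 42.5% of the values were not whole.

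In bFGF against OIM, the comparison that asks what bFGF adds to the osteogenic medium, 52 transcripts from 49 loci rose and 91 from 80 loci fell (edgeR quasi-likelihood test, Benjamini-Hochberg adjusted p at most 0.05, absolute log2 fold change at least 0.5). That was 3.00% and 5.26% of the 1731 tested, beside 3.24% and 6.17% of all 2220 non-coding rows tested, most of which are these same transcripts. Among the 489 other non-coding rows 4.09% rose and 9.41% fell, and the difference was not tested. Among gene rows the same limits called 17.7% higher and 18.4% lower. An unadjusted p below 0.05 was reached by 367 transcripts (21.2%). The groups did not overlap for any of the 143 called transcripts, and did not overlap for 498 (28.8%) of all tested. The direction of the balance depended on scaling. CPM here used gene totals and TMM factors of the gene rows, which put the median of all non-coding rows at -0.13, and with gene totals alone that median moved up by 0.22 and the calls were 84 higher and 66 lower. The share of calls that were higher was 36.4% in the first case, 56.0% in the second and 46.5% with TMM factors from the non-coding rows. Changes of single transcripts are therefore to be read against that shift. Leaving out BFGF replicate 1, 2 or 3 reduced the higher calls to 25, 29 or 26, and leaving out OIM replicate 1 or 3 to 30 or 32. Leaving out BFGF replicate 1 or OIM replicate 1 reduced the lower calls to 50 or 54. Of the 143 calls, 61 held in all 9 fits that left out 1 library and 8 in none.

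**Figure D1:**
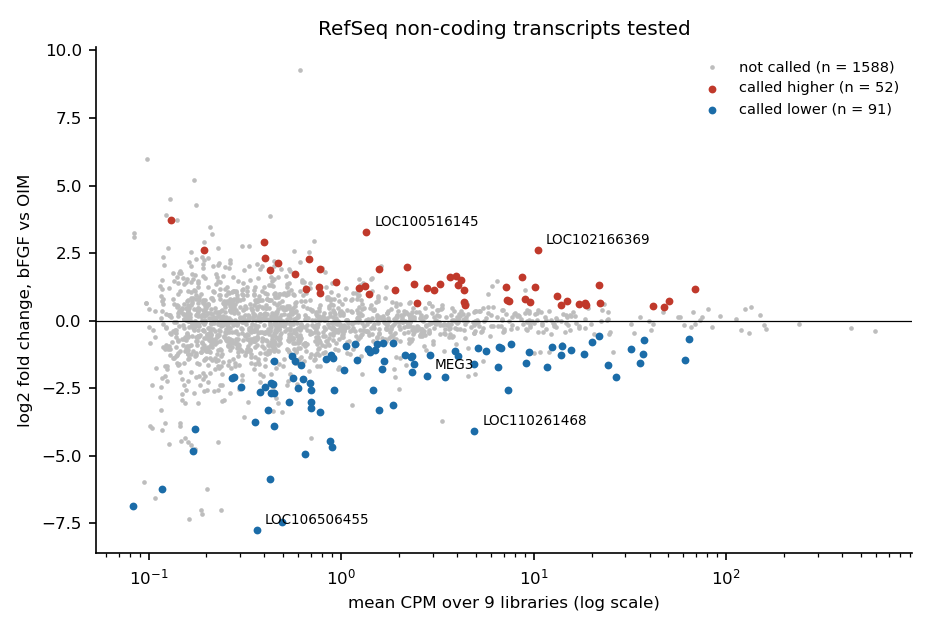
Log2 fold change of bFGF over OIM (vertical axis) against mean CPM over the 9 libraries (horizontal axis, log scale) for the 1731 transcripts tested. Red points are the 52 called higher, blue points the 91 called lower and grey points those not called; the lowest labelled point, LOC106506455, had no counts in any bFGF library.

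Among the transcripts that rose were 2 neighbours on chromosome 8 that run antisense within FAM198B, a gene for a Golgi-associated protein. LOC100516145 (XR_002346647.1, chr8:47097359-47112734, plus strand) was at 0.266, 0.401 and 0.251 CPM in control, 0.393, 0.397 and 0.262 in OIM and 3.43, 3.26 and 3.49 in bFGF libraries. The bFGF libraries lay far above all 6 others, and the log2 fold change was 3.27 ± 0.26 (SE, n = 3 per group, edgeR adjusted p = 0.000127). FAM198B itself went from 12.3 to 16.6 CPM in OIM to 242 to 259 in bFGF libraries (4.14 ± 0.08). Since LOC100516145 shares 159 exon bases with FAM198B and the use of strand in counting is not given in the sources used here, whether reads of the pair were kept apart there is unknown, although the libraries are labelled as stranded. The next locus downstream, LOC110262097 (chr8:47114394-47120698), shares no exon base with FAM198B. It was at 0.0427, 0.177 and 0.178 CPM in OIM and 0.667, 1.13 and 1.25 in bFGF libraries, without overlap (2.92 ± 0.71, edgeR adjusted p = 0.0351). That call was lost without NC replicate 3 and without any single OIM or BFGF library, with adjusted p of 0.0536 to 0.108.

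Higher levels were reached by 2 other uncharacterised RNAs. LOC102166369 (XR_002340862.1, chrX:40593019-40681904, minus strand, 5 exons, 3618 bases), whose GC-rich start is shown above, was at 3.94, 3.61 and 3.88 CPM in control, 3.12, 5.07 and 3.43 in OIM and 21.3, 24.9 and 25.2 in bFGF libraries. Control and OIM overlapped, and the bFGF libraries were all above them (2.62 ± 0.20, edgeR adjusted p = 0.000122). LOC102161634 (XR_001304151.2, chr9:91597881-91600765, plus strand) showed 3 separate levels, with 3.17, 3.65 and 3.59 CPM in control, 5.41, 6.24 and 4.94 in OIM and 18.3, 15.96 and 17.1 in bFGF. Its bFGF change over OIM was 1.63 ± 0.14 (edgeR adjusted p = 0.000239), whereas the OIM value over control, 0.67 ± 0.14, did not pass (edgeR adjusted p = 0.313). Both bFGF calls held whichever library was left out.

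Other transcripts rose from lower levels. LOC106510436, 28392 bases from the plasma membrane calcium pump gene ATP2B1, had at most 0.0428 CPM in control and 0.0419 in OIM and reached 0.307, 0.413 and 0.298 CPM in bFGF libraries. Against a floor of 3 counts per library this was at least 6.62-fold higher than OIM (edgeR adjusted p = 0.00935). ATP2B1 rose too, by 1.57 ± 0.05 on the log2 scale. LOC106509546 lies 6914 bases from LMNB1, the gene of the nuclear envelope protein lamin B1. It was at 0.192, 0.231 and 0.0804 CPM in OIM and 0.948, 0.924 and 0.684 in bFGF (2.33 ± 0.46, edgeR adjusted p = 0.0147), and LMNB1 rose by 2.28 ± 0.11. Neither non-coding call held under every setting. LOC106510436 was lost without OIM replicate 1 or 2 or BFGF replicate 1 or 2 (adjusted p of 0.0540 to 0.0680), and LOC106509546 without OIM replicate 1 or BFGF replicate 1 or 2 (0.0522 to 0.0599). Without a filter on low counts they were at adjusted p of 0.0728 and 0.0586, and limma-voom did not call LOC106510436 (0.0601). LOC110255724 rose by 1.90 ± 0.32 from 0.367, 0.399 and 0.436 CPM in OIM to 1.21, 1.35 and 1.96 in bFGF libraries (edgeR adjusted p = 0.00672), a call that every such fit kept. Of the other 4 among the 10 largest rises, LOC102162937, NPHP4, LOC106510075 and CCNB1IP1, the log2 fold changes were 2.62, 2.30, 2.14 and 1.90. Summed over its locus, CCNB1IP1 was not called (0.35 ± 0.17, edgeR adjusted p = 0.216). These 4 kept the call in 4, 5, 5 and 1 of the 9 fits without 1 library. The losses came without OIM replicate 1 or 3 or any BFGF library for LOC102162937 (adjusted p of 0.0637 to 0.0942), without OIM replicate 2 or 3 or BFGF replicate 1 or 3 for NPHP4 (0.0520 to 0.0642), without OIM replicate 1 or 3 or BFGF replicate 1 or 3 for LOC106510075 (0.0501 to 0.0526), and without any library but NC replicate 1 for CCNB1IP1 (0.0580 to 0.163).

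Among the transcripts that fell, several were lost almost entirely. LOC110261468 (XR_002345560.1, chr1:132302317-132509133, minus strand, 3 exons, 4892 bases) was at 6.70, 8.03 and 7.88 CPM in control, 6.76, 5.52 and 8.09 in OIM and 0.290, 0.514 and 0.380 in bFGF libraries. The bFGF values lay more than 10 times below the lowest of the others (-4.08 ± 0.25, edgeR adjusted p = 5.78e-05). The locus just beyond it on the same strand, LOC102162931 (chr1:132190398-132269017), had a log2 fold change of -3.75 ± 0.80 (edgeR adjusted p = 0.0200). That call was lost without OIM replicate 1 or 2 or BFGF replicate 2 (edgeR adjusted p of 0.0579 to 0.0709). It was also lost with limma-voom, with a replicate block and with a fit of the bFGF and OIM groups alone. LOC106506455 (XR_002342512.1, chr1:21061209-21116780, minus strand) had 25.8, 30.5 and 27.0 estimated counts in OIM and none in any bFGF library, at least 8.27-fold lower against the floor of 3 counts per library (edgeR adjusted p = 0.000813). Its nearest coding gene, STX11 (syntaxin 11, a membrane fusion protein, 11091 bases away), fell by 1.07 on the log2 scale.

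LOC106507943 was at 1.26, 1.22 and 1.09 CPM in OIM and 0.101, 0.0262 and 0.0260 in bFGF libraries (-4.68 ± 0.51, edgeR adjusted p = 0.000753). LOC110261683, antisense to the transcription factor gene NPAS3, was at 1.08, 0.781 and 1.16 CPM in OIM and at most 0.0488 in bFGF, at least 17.6-fold lower (edgeR adjusted p = 0.000227). LOC106510246 (XR_001308597.2) went from 1.18, 1.41 and 1.39 CPM in OIM to 0.109, 0.134 and 0.134 in bFGF (-3.36 ± 0.28, edgeR adjusted p = 0.000171). The groups stood apart in each of these 3, and none of the 3 calls depended on a single library, but limma-voom did not call LOC110261683 (adjusted p = 0.0601). Other large falls were lost under more settings. LOC106506539 was at least 6.70-fold lower, but the sum over its locus was not called (-1.06, edgeR adjusted p = 0.228). LOC110259968 (-4.93 ± 1.03) was lost without OIM replicate 1 or BFGF replicate 1 or 2 (adjusted p of 0.0567 to 0.0608). LOC100514834 (at least 4.18-fold lower) was lost without OIM replicate 3 or BFGF replicate 1 or 2 (0.0515 to 0.0575). LOC106508330 (-4.01) was lost in all 9 such fits (0.0504 to 0.121), and the sum over its locus was -0.98 (edgeR adjusted p = 0.0123).

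**Figure D2:**
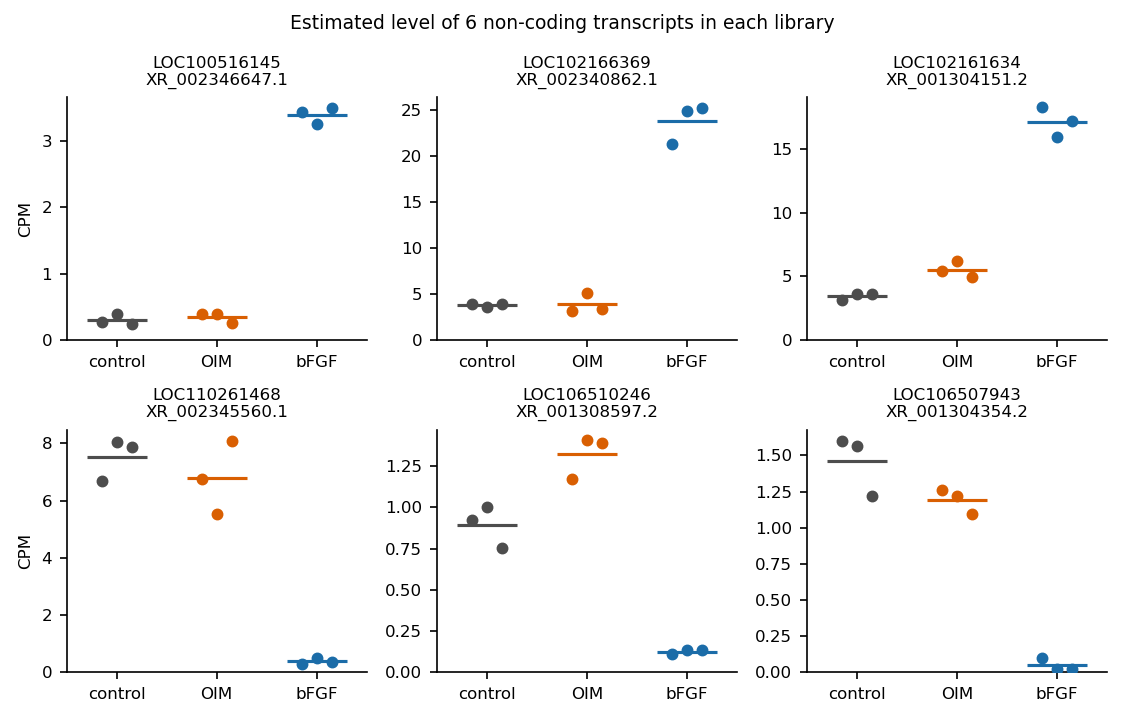
Estimated level (CPM, linear axis from 0) of 6 transcripts in each of the 9 libraries, with 1 point per library and a bar at the group mean. In the upper row the bFGF libraries lie above all others for LOC100516145, LOC102166369 and LOC102161634, and in the lower row they lie below all others for LOC110261468, LOC106510246 and LOC106507943.

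MEG3 was the only 1 of 40 listed well-studied non-coding RNA symbols that matched a record. Its transcript (NR_021488.1, chr7:121656253-121660495, plus strand, 2 exons, 1380 bases) was at 2.95, 3.94 and 3.50 CPM in control, 4.05, 4.09 and 3.67 in OIM and 0.944, 1.12 and 0.811 in bFGF libraries. Control and OIM overlapped, and all bFGF libraries were below them (-2.04 ± 0.18 against OIM, edgeR adjusted p = 0.000269, and -1.85 against control, edgeR adjusted p = 0.000407). The other NR_ record that fell was LOC100152407, at 8.99, 7.94 and 9.61 CPM in OIM and 5.64, 4.64 and 4.47 in bFGF libraries (-0.85 ± 0.16, edgeR adjusted p = 0.0105). Its groups did not overlap, and both calls against OIM held whichever library was left out. Because one transcript of a locus can take reads from another, the estimated counts of each locus were also summed and tested again. The 3 RefSeq non-coding loci that follow MEG3 on the same strand, up to chr7:121844012, all fell in those sums, in which 10.0% of all 1737 rows tested were called lower. The span, 188 kb, was chosen after its values were seen. LOC106504559 (8 transcripts) was at 1.06, 0.964 and 0.819 CPM in control, 2.06, 1.96 and 1.33 in OIM and 0.370, 0.363 and 0.386 in bFGF (-2.24 ± 0.23, edgeR adjusted p = 0.000292). LOC102163738 (20 transcripts) was at 2.87, 3.81 and 3.30 CPM in OIM and 1.08, 1.02 and 0.929 in bFGF (-1.72 ± 0.18, edgeR adjusted p = 0.000311). LOC110261648 (12 transcripts) was by far the most abundant, at 76.4, 78.1 and 72.9 CPM in control, 84.1, 79.7 and 83.4 in OIM and 24.6, 24.5 and 28.0 in bFGF (-1.68 ± 0.08, edgeR adjusted p = 4.21e-06). No bFGF library overlapped another group at any of the 4 loci, and all 4 calls held whichever library was left out. Transcript by transcript the same span was less clear, with 0 of 4, 0 of 6 and 2 of 11 tested transcripts of these 3 loci called, although all 11 of LOC110261648 had values below 0. The coding genes DLK1 and RTL1 of the domain gave no comparison, since DLK1, a Notch-like regulator, had 0 counts in all libraries and RTL1, a retrotransposon-derived gene, 13 in total.

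**Figure D3:**
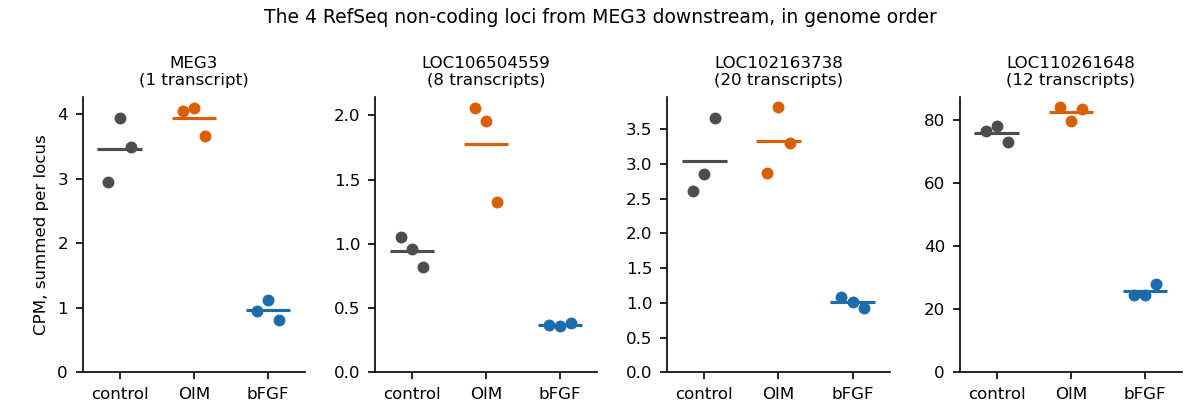
CPM summed over all annotated transcripts of each locus (linear axes from 0, scaled per panel) for MEG3 and the 3 non-coding loci that follow it, with 1 point per library and a bar at the group mean. At all 4 loci the bFGF points lie below every control and OIM point, and LOC110261648 is at 72.9 to 84.1 CPM without bFGF and 24.5 to 28.0 CPM with it.

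A second stretch of falling loci, also singled out after its values were seen, lies beyond LMO4, the gene of a LIM-only transcription cofactor, on chromosome 4 (chr4:128589693-128894867, 305 kb). Of its 7 RefSeq non-coding loci, 4 were tested as sums and 3 fell, beside 10.0% of all 1737 non-coding rows tested as sums. LOC106510246, described above, fell by 3.20 ± 0.23 as a sum (edgeR adjusted p = 3.56e-05). LOC110260391 was at 2.795, 2.34 and 2.52 CPM in control, 3.84, 2.09 and 3.61 in OIM and 0.282, 0.376 and 0.293 in bFGF libraries (-3.31 ± 0.27, edgeR adjusted p = 8.19e-05). LOC110260392 was at 3.53, 2.87 and 3.23 CPM in OIM and 0.819, 0.798 and 0.993 in bFGF (-1.88 ± 0.18, edgeR adjusted p = 0.000242). In both, the bFGF libraries were below all others. The remaining locus, LOC106510248, did not pass (-1.14 ± 0.56, edgeR adjusted p = 0.215). LMO4 was at 203 to 237 CPM in OIM and 77.7 to 80.2 in bFGF libraries (-1.50 ± 0.05).

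Of the 57 loci with a gene symbol, 52 were tested as sums, and 8 rose and 4 fell with bFGF against OIM. Over all 1737 non-coding rows tested in this way 5.30% rose and 10.0% fell. Most of the symbols are those of coding genes, and whether these reads came from coding messages that the annotation lacks was not tested. GSN, named for the actin-severing protein gelsolin, was the most abundant that fell. Its 9 transcripts summed to 236, 239 and 225 CPM in control, 243, 217 and 242 in OIM and 95.4, 94.1 and 91.0 in bFGF libraries (-1.33 ± 0.06, edgeR adjusted p = 4.20e-06). Each of the 9 had a value below 0 and 5 were called, from -1.64 ± 0.19 for XR_002337469.1 to -1.16 ± 0.17 for XR_002337463.1. The call of XR_002337468.1 was lost in 7 of the 9 fits without 1 library (edgeR adjusted p of 0.0758 to 0.141), and the other calls held in all. NHLRC3 was at 27.8, 24.4 and 26.6 CPM in OIM and 15.0, 13.98 and 15.8 in bFGF (-0.81 ± 0.10, edgeR adjusted p = 0.000965). The other loci that fell were MEG3 and RARG, the retinoic acid receptor gamma, whose change of -0.50 ± 0.09 lay at the fold limit and was inside it without OIM replicate 1 or 3 or BFGF replicate 1 or 2, with the values without 1 library running from -0.55 to -0.47.

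CDK6, a kinase that drives cells through G1, was the most abundant symbol locus that rose. It summed to 87.0, 85.3 and 85.3 CPM in control, 92.7, 107 and 98.3 in OIM and 188, 195 and 204 in bFGF libraries (0.98 ± 0.07, edgeR adjusted p = 2.62e-05), with no overlap. ISYNA1, an inositol synthase, rose by 1.24 ± 0.14 (edgeR adjusted p = 0.000409). SNRPB, a core spliceosome protein, was at 37.1, 38.5 and 38.9 CPM in OIM and 57.8, 57.1 and 58.5 in bFGF (0.60 ± 0.07, edgeR adjusted p = 0.000456). MRPS12, of the small mitochondrial ribosomal subunit, rose by 0.68 ± 0.12, and TSSC4 by 0.80 ± 0.13. These 5 rises held whichever library was left out. NPHP4, a ciliary protein (1.13 ± 0.27), was lost without OIM replicate 1 or 3 or BFGF replicate 1 or 2 (adjusted p of 0.0606 to 0.0805), and ELAVL4, a neuronal RNA-binding protein (0.84 ± 0.25), was lost without any library but OIM replicate 3 (0.0536 to 0.138). Another 12 symbol loci passed the p limit and not the fold limit, 6 with values above 0 and 6 below. SLC7A5, a large amino acid transporter, was at 123, 126 and 121 CPM in OIM and 173, 173 and 176 in bFGF (0.49), EIF3B, a translation initiation factor, had 0.45, the nucleoporin NUP58 0.44 and the surface glycoprotein CD99 0.40. Below 0, ZNRF1 had the value farthest from it (-0.44), followed by MARVELD1 (-0.30), TGOLN2 (-0.29) and ITCH (-0.28).

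**Figure D4:**
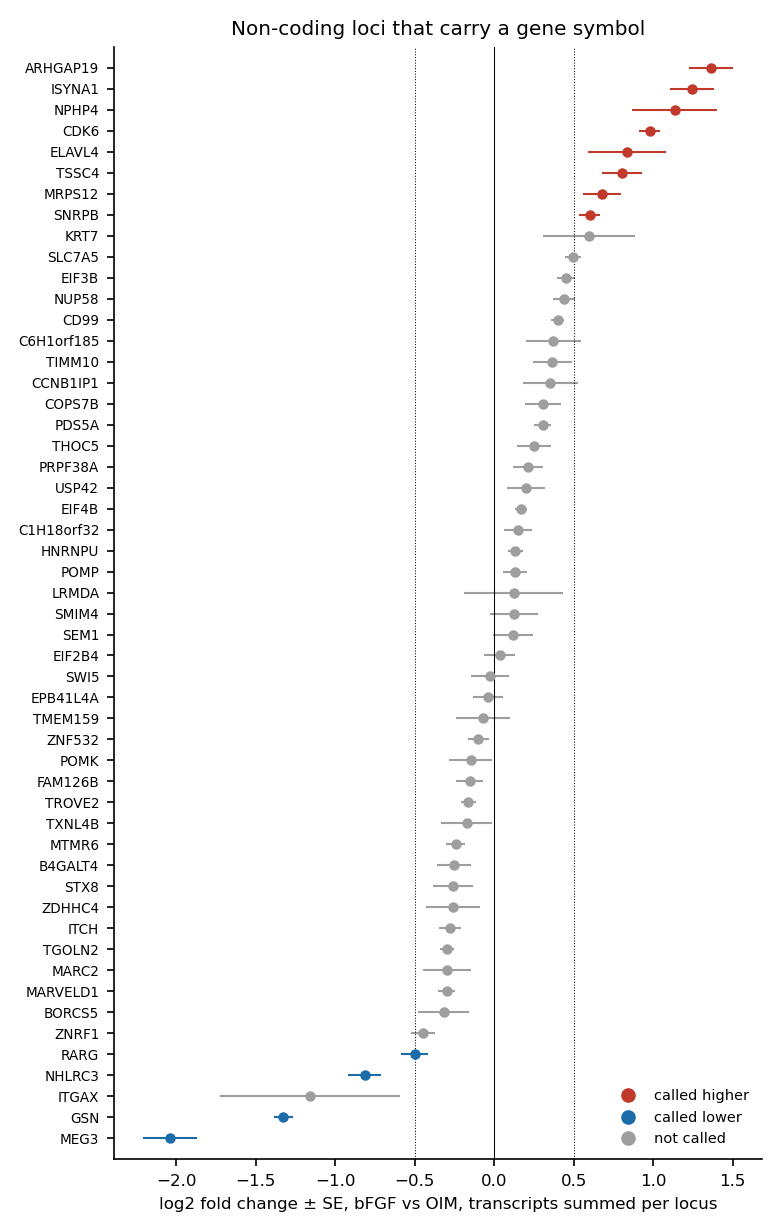
Log2 fold change of bFGF over OIM with its SE (horizontal axis) for the 52 tested non-coding loci that carry a gene symbol, with transcripts summed per locus and loci ordered by value. Each SE was worked back from the test of the same change. The 4 loci in blue (MEG3, GSN, NHLRC3 and RARG) were called lower, the 8 in red were called higher, and dotted lines mark the fold limit of 0.5.

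Like most transcripts tested, the most abundant were not called in bFGF against OIM. LOC100513133 was at 686, 622 and 808 CPM in control, 651, 535 and 635 in OIM and 450, 473 and 476 in bFGF libraries (-0.38, edgeR adjusted p = 0.0530 against OIM), and fell against control (-0.60, edgeR adjusted p = 0.00632), a change inside the fold limit without NC replicate 3 (-0.49). LOC106509199 was at 623, 549 and 631 CPM in control, 441, 387 and 381 in OIM and 365, 308 and 335 in bFGF. Per kilobase it was the denser of the pair, with 1097.5 CPM per kb against 74.8 for LOC100513133. Its bFGF change was -0.84 against control (edgeR adjusted p = 0.000498) and -0.26 against OIM, which did not pass. Of the 10 with the highest CPM, none was called against OIM, beside 3.00% higher and 5.26% lower of all tested. Against control 4 of them were called, LOC100513133 and LOC106509199 lower and SLC7A5 and CD99 higher, beside 4.45% higher and 6.53% lower. No difference from these shares was tested.

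Where a locus had several isoforms, calls were seldom shared among them. Of 240 loci with at least 2 tested transcripts, 42 had a call, 32 of those on 1 transcript only, 10 on 2 or more and 3 on all. No locus had transcripts called in opposite directions. Sums per locus, an alternative added after the data were seen, gave 66 loci higher and 113 lower of 1248 member loci tested, and 118 of these 179 loci were also among the 129 called by transcript. The common coefficient of variation fell from 0.570 by transcript to 0.431 by locus. LOC100523870, a locus with a single transcript, was as a sum at 41.1, 41.9 and 44.5 CPM in control, 49.6, 45.7 and 51.0 in OIM and 16.3, 17.1 and 16.004 in bFGF libraries (-1.57 ± 0.08, edgeR adjusted p = 1.03e-05).

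The called transcripts were next set beside their nearest coding gene, 1 transcript per locus, for the 1019 loci whose neighbour was tested. Over all of these, 15.9% of neighbours rose and 20.1% fell. Beside the 37 called loci that rose, 16 neighbours rose (43.2%) and 3 fell (8.11%). Beside the 63 that fell, 31 neighbours fell (49.2%) and 11 rose (17.5%). Some genes were nearest to several loci and count once for each, LMO4 and FAM198B among them. Of the 37 and the 63 loci, 4 and 11 lay farther than 50 kb from the neighbour, the farthest at 370008 bases. Across the 1019 pairs Spearman's correlation between the fold changes was 0.303, a description only, since both values of every pair come from the same 9 libraries and some pairs share sequence.

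Called loci that overlap a coding gene on the same strand had fold changes of the same sign as that gene. There were 11 such called loci, of which 10 share no exon base with the gene, and the sign was the same in all 11. LOC102160748, within CALD1, the gene of the actin-binding protein caldesmon, was at 33.3, 34.2 and 37.7 CPM in control, 38.7, 31.8 and 39.7 in OIM and 8.39, 8.002 and 9.92 in bFGF libraries (-2.07 ± 0.14, edgeR adjusted p = 6.26e-05). CALD1 changed by -2.07 ± 0.06. The same held within SGCD (delta-sarcoglycan), with -1.70 for LOC110257243 and -2.09 for the gene, within LIMCH1, an actomyosin regulator, with -1.60 for LOC110262081 and -1.73, and within the glycolytic enzyme gene GPI, with -1.09 for LOC110260979 and -1.22. These 4 non-coding calls held without any single library. Those within SDC2 (syndecan 2, -1.78 for LOC110260253 and -1.97 for the gene) and PALMD (palmdelphin, -1.36 for LOC110260438 and -1.52) were lost without BFGF replicate 1, the second also without OIM replicate 1, at adjusted p of 0.0540 and of 0.0596 to 0.0611. In all, 7 of these loci fell with a neighbour that fell. The other 4 rose, 2 of them with a neighbour that rose and 2 with 1 that was not called. The 2 with a rising neighbour, LOC110262186 within TSPAN5 and LOC106508857 within NKAIN2, held in only 1 and 2 of the 9 fits without 1 library. LOC110262186 was lost without any library but NC replicate 3 (adjusted p of 0.0561 to 0.144), and LOC106508857 without any but OIM replicate 3 and BFGF replicate 2 (0.0515 to 0.113). Intronic reads of a pre-messenger RNA and an RNA of the locus's own cannot be told apart in these counts.

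Antisense pairs moved both ways. Of 9 loci opposite a coding gene that rose, 3 neighbours rose, 2 fell and 4 were not called, and of 23 that fell, 9 neighbours fell, 7 rose and 7 were not called. LOC110260368, opposite the fibrillar collagen gene COL11A1 with 120 shared exon bases, fell from 1.25, 0.852 and 0.787 CPM in OIM to 0.105, 0.2498 and 0.112 in bFGF libraries (-2.58 ± 0.40, edgeR adjusted p = 0.00519) beside a change of -3.13 ± 0.08 in COL11A1. The opposite sense was clearest at HMGA2, an architectural chromatin protein of growing cells. LOC106507220, opposite it with no shared exon base, was at 0.784, 1.10 and 1.24 CPM in control, 1.17, 1.46 and 1.79 in OIM and 0.413, 0.203 and 0.113 in bFGF libraries. All bFGF values were below the others (-2.57 ± 0.45, edgeR adjusted p = 0.00803), while HMGA2 went from at most 0.844 CPM to 17.5 to 19.7 (4.70 ± 0.16). That non-coding call held whichever library was left out, and the sum over its locus was -1.62 ± 0.24 (edgeR adjusted p = 0.00229). Of the other 8 antisense loci called one way beside a neighbour called the other way, 5 are given here, and none of these 5 held in all such fits. LOC110260298, opposite the coagulation factor gene F5, was at 5.99, 7.02 and 4.70 CPM in OIM and 2.98, 3.20 and 2.02 in bFGF (-1.11 ± 0.22, edgeR adjusted p = 0.0147), beside 1.91 ± 0.06 for F5. It was lost without OIM replicate 1 or 2 or BFGF replicate 1 (adjusted p of 0.0501 to 0.0605). LOC110256794, sharing 413 exon bases with CIT, a kinase of cell division, had -0.86 ± 0.17 (edgeR adjusted p = 0.0154) beside 1.77 ± 0.08. It was lost without OIM replicate 2 or 3 or BFGF replicate 1 or 2 (0.0638 to 0.0692). LOC110260784, opposite the growth factor gene IGF1, was at 1.03, 1.29 and 0.995 CPM in OIM and 2.03, 1.94 and 2.66 in bFGF (0.99 ± 0.24, edgeR adjusted p = 0.0358), beside -2.61 ± 0.06 for IGF1, and held in 1 of 9 fits. LOC106509979, sharing 364 exon bases with SHAS2 (hyaluronan synthase), was at 1.25, 0.952 and 1.22 CPM in OIM and 0.376, 0.661 and 0.391 in bFGF (-1.28 ± 0.32, edgeR adjusted p = 0.0405), beside 2.72 ± 0.12 for SHAS2, and held in 2. LOC110257438, sharing 92 exon bases with the myosin light chain gene MYL9, had 1.16 ± 0.30 (edgeR adjusted p = 0.0464) beside -1.91 ± 0.06, and held in none. Where 1 of the last 3 calls was lost, the adjusted p lay at 0.0507 to 0.130 for LOC110260784 (every library but NC replicate 3), 0.0661 to 0.142 for LOC106509979 (every library but NC replicate 3 and BFGF replicate 2) and 0.0689 to 0.174 for LOC110257438.

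**Figure D5:**
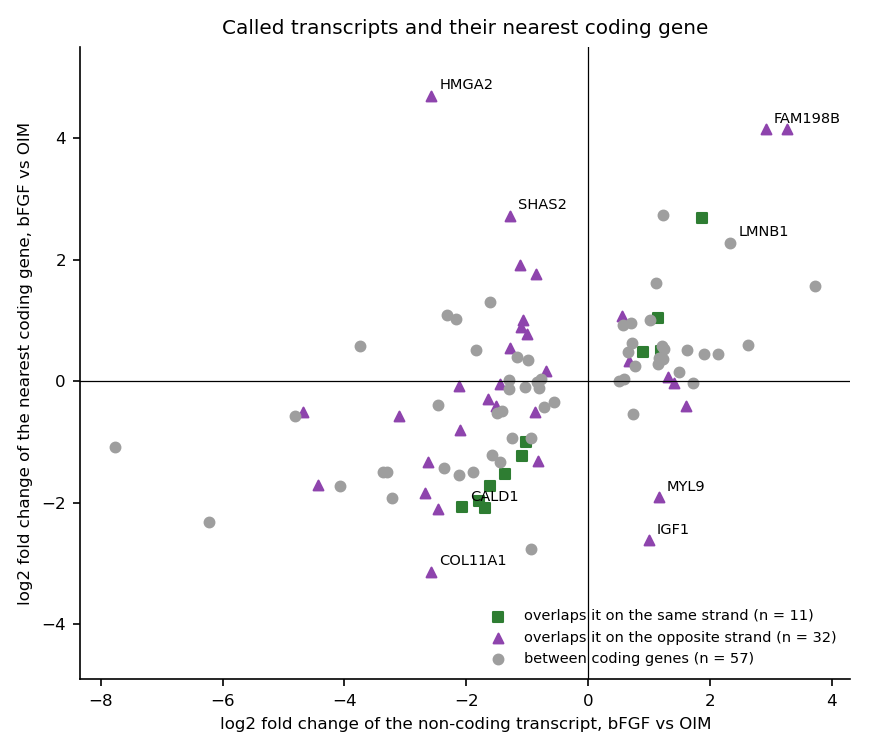
Log2 fold change of bFGF over OIM of a called non-coding transcript (horizontal axis) against that of its nearest coding gene (vertical axis), 1 point for each of 100 loci. Squares overlap the gene on the same strand and all lie at the lower left or upper right, triangles overlap it on the opposite strand and circles lie between coding genes; HMGA2 stands at the upper left and IGF1 at the lower right.

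Some loci start head to head with a coding gene, so that a single stretch of sequence lies before both. The bases between the starts are shown for 3 such pairs, chosen after their values were seen. They are MRPS12 with SARS2 (chr6:47728395-47728517, plus strand), LOC110255511 with ZBTB37 (chr9:116149134-116149233, minus) and LOC100627892 with SLC3A2 (chr2:8919071-8919230, plus), and capitals mark the motifs searched above.
MRPS12 to SARS2: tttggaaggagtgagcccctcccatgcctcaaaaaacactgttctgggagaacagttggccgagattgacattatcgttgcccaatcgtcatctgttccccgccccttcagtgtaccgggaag
LOC110255511 to ZBTB37: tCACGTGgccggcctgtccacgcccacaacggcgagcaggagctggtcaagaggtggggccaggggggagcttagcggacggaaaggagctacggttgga
LOC100627892 to SLC3A2: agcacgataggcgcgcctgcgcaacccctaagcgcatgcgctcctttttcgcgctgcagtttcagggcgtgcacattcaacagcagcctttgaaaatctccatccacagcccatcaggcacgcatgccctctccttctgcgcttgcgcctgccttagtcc
The MRPS12 and SARS2 pair rose together. MRPS12 transcript XR_002344649.1 was at 5.94, 6.58 and 5.57 CPM in OIM and 10.9, 10.2 and 8.90 in bFGF libraries (0.73 ± 0.14, edgeR adjusted p = 0.0132), and SARS2, a mitochondrial seryl-tRNA synthetase, changed by 0.63 ± 0.15. At the ZBTB37 pair 1 of 5 tested transcripts was called, and the values of the 5 ran from -4.33 to 0.75. The called transcript of LOC110255511, whose interval holds an E-box at bases 2 to 7, was at 13.2, 10.8 and 12.8 CPM in OIM and 21.0, 17.9 and 23.0 in bFGF (0.75 ± 0.14, edgeR adjusted p = 0.0132), and ZBTB37, a zinc finger gene, changed by -0.54 ± 0.06. The sum over LOC110255511 was under the fold limit (0.42 ± 0.08, edgeR adjusted p = 0.00782). The transcript calls were lost without OIM replicate 1 or 3 or BFGF replicate 1 for MRPS12 (adjusted p of 0.0548 to 0.0596) and without BFGF replicate 1 or 3 for LOC110255511 (0.0538 to 0.0556). As a sum, LOC100627892 was at 7.65, 8.83 and 8.38 CPM in OIM and 15.7, 15.3 and 16.4 in bFGF (0.93 ± 0.12, edgeR adjusted p = 0.000965), and SLC3A2, the partner chain of SLC7A5, had a value of -0.20 ± 0.04, under the fold limit. Farther apart, LOC106507243 starts 537 bases from HMGB2, a chromatin protein of dividing cells, and rose by 1.12 ± 0.23 (edgeR adjusted p = 0.0164) beside 1.61 ± 0.08, a call lost without OIM replicate 1 or 3 or BFGF replicate 2 or 3 (adjusted p of 0.0566 to 0.0654). Of all 406 tested transcripts that start head to head within 1 kb of a coding gene, 9 rose (2.22%) and 10 fell (2.46%), beside 3.00% and 5.26% of all tested. Counted by locus and without overlap, 155 such pairs had a tested neighbour, of which 14.2% rose and 12.3% fell. Beside the 5 loci called higher, 2 neighbours rose and 1 fell, and beside the 5 called lower 0 neighbours were called.

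Against control, which asks how far cells in osteogenic medium with bFGF stood from untreated cells, 77 transcripts from 70 loci rose and 113 from 100 loci fell. An unadjusted p below 0.05 was reached by 412 (23.8%). Leaving out NC replicate 1 or 2 or BFGF replicate 1 or 3 reduced the higher calls to 50, 42, 46 or 49, and leaving out NC replicate 2 or 3 the lower calls to 73 or 74. Of all non-coding rows, 4.50% rose and 7.93% fell in this comparison, or 6.56% and 12.0% as sums. The share of calls that were higher was 40.5%, and 59.7% with gene totals alone, where the median of all rows moved up by 0.23. With TMM factors from the non-coding rows it was 52.2%. Both comparisons use the same bFGF libraries, so their values are given side by side only. Of the transcripts, 46 rose in both, 78 fell in both, 6 rose and 13 fell against OIM alone, and 31 rose and 35 fell against control alone, without a test of the difference. LOC102161634 was among those with the larger value against control (2.30 ± 0.15, edgeR adjusted p = 3.58e-05), as was LOC110262097 (4.27, edgeR adjusted p = 0.00789). LOC110260615 had at most 0.0370 CPM in control and 0.271, 0.256 and 0.276 in bFGF libraries, at least 5.19-fold higher, and did not pass against OIM (2.05, edgeR adjusted p = 0.0548). Its call against control was lost without NC replicate 1 or 3 or BFGF replicate 1 or 3 (adjusted p of 0.0514 to 0.0560), with limma-voom (0.0628) and without a filter on low counts (0.0945). LOC110261468 fell by 4.23 ± 0.26 against control (edgeR adjusted p = 3.58e-05).

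In OIM against control, which asks what the osteogenic medium itself changes, 1 transcript rose and 0 fell by edgeR, beside 0.0450% and 0.00% of all non-coding rows. An unadjusted p below 0.05 was reached by 97 transcripts, 5.6% of those tested. DESeq2 called 10 higher and 3 lower. The single call was EPB41L4A transcript XR_002342069.1, named for a membrane skeleton protein, at 0.536, 0.770 and 0.658 CPM in control, 3.45, 2.18 and 3.80 in OIM and 2.85, 3.43 and 2.72 in bFGF libraries (2.26 ± 0.26, edgeR adjusted p = 0.0328). Among the 9 fits that left out 1 library it held only without OIM replicate 2 (adjusted p of 0.0798 to 0.269 in the others), and the sum of its locus was at -0.06. As sums, 1 locus rose and 1 fell (0.0576% of rows each), and both were lost in all 9 such fits. LOC106505263 (chr12:60952420-60969051, plus strand, 4 transcripts) was at 6.69, 7.11 and 6.95 CPM in control, 13.5, 11.9 and 11.4 in OIM and 5.92, 6.43 and 7.13 in bFGF libraries. Only OIM stood apart there (0.83 ± 0.12 against control, edgeR adjusted p = 0.0458), and with bFGF the level was lower again (-0.92 ± 0.12 against OIM, edgeR adjusted p = 0.00150, and -0.09 against control). The fits without 1 library gave adjusted p of 0.120 to 0.255 for that rise. The locus that fell was LOC106509199, by 0.58 ± 0.09 as a transcript, where it did not pass (edgeR adjusted p = 0.0909). For the 52 transcripts that rose with bFGF against OIM, the median change of OIM over control was 0.02, and for the 91 that fell it was -0.09. Single values ran from -0.87 to 1.35 and from -1.54 to 6.85. Both sets were chosen through the same OIM libraries, so these medians are not independent of the choice and are a description only.

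Features of structure are described here without a test. Median spliced length was 3391 bases for all tested, 3120.5 for those that rose and 3758 for those that fell, with a median of 3 exons and a median GC of 47.2, 47.1 and 47.4%. Median repeat content was 18.7, 14.6 and 14.8%, and the median distance to the nearest coding gene was 131, 1278 and 2134 bases. Median CPM was 0.499, 3.81 and 1.47, higher in both called sets than over all tested. The other differences between these sets were not separated from that in level, and the part of the counts needed for a call was not tested. Of the 300-base start windows (unique windows, 1464 tested, 51 of transcripts that rose and 87 of those that fell), the cyclic AMP response element occurred in 1.71, 1.96 and 1.15%, and in 1.03% of all 6912 windows. The AP-1 site occurred in 6.83, 9.80 and 5.75% (8.52% of all), the E-box in 5.94, 3.92 and 6.90% (5.86%) and the ETS site in 4.37, 5.88 and 3.45% (2.05%). The ratio of observed to expected CpG had a median of 0.566 in tested windows, 0.657 in those that rose and 0.448 in those that fell, against 0.384 in all, and windows mostly of repeat bases made up 32.7, 29.4 and 37.9%.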

How the data were processed

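RNA of 9 libraries (3 groups of 3) was sequenced. The authors deposited 1 table, in which non-coding transcripts hold estimated counts and gene rows raw counts. The submitters' notes name Trimmomatic, HISAT2, StringTie and Sscrofa11.1, and the methods of the study name other programs. The program that estimated transcripts and its use of strand are not given in the sources used here, and 19 further columns were blank.

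Estimated counts were rounded to whole numbers, kept by filterByExpr over all non-coding rows and tested in edgeR 4.0.16 (R 4.3.3, quasi-likelihood, all groups in 1 fit, 6 residual degrees of freedom) with library sizes and TMM factors of the gene rows. P-values were adjusted over the 2220 rows tested by the Benjamini-Hochberg method. Each SE given with a log2 fold change was not fitted separately but worked back from the quasi-likelihood test. It is the SE at which the squared ratio of change to SE equals the F value of that test. Such an SE adds no evidence beyond the p-value and has no meaning where the change is very small. CPM is the estimated count divided by the TMM-scaled gene total and scaled to 1e6, and the floor was 3 counts per library. DESeq2 1.42.0 and limma 3.58.1 were alternatives. The fit was tested on simulated data. Positions and sequences are from RefSeq release 106 on Sscrofa11.1 (9014 of 9014 transcripts matched).

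In the named set, taken by rule, were the 10 largest called changes without overlap (group mean of 10 counts or more on the higher side), 1 per locus, per direction against OIM and control; each OIM call and the 3 smallest p per direction; the 10 highest mean CPM; and any of 40 well-studied RNAs. Genes, loci and spans outside it were chosen after their values were seen. Members and lists were chosen with earlier results of these data known. Estimated counts of replicates differed by more than counting noise in every group, with a mean chi-square of 9.3 to 12.6 per transcript. That measure also takes in error from the split of reads among isoforms. A planned test of transcript-to-gene ratios was not run, since only SEM1 had both a gene row and members. A further start window and a further locus are not reported here.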

Additional observations from a re-analysis of the deposited data

How the results depend on the processing

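The numbers of transcripts called moved with the setting, and the causes were not tested. For bFGF against OIM (52 higher, 91 lower) DESeq2 gave 81 and 145, a fit of gene and non-coding rows together 112 and 197, gene totals without TMM factors 84 higher, no filter on low counts 31 higher and a fold limit of 1 34 higher. For bFGF against control (77 and 113) the joint fit gave 134 and 221, gene totals alone 75 lower and no filter 45 higher. For OIM against control (1 and 0) DESeq2 gave 10 and 3, the joint fit 16 and 9, limma-voom and no filter each 1 lower, sums per locus 1 lower, and a fit of only the 2 groups 0 higher. Replicate numbers did not pair the libraries (correlations of deviations from -0.04 to 0.04), and a fit with the replicate block gave 0 higher for OIM against control, 39 higher and 65 lower for bFGF against OIM, and 63 and 85 for bFGF against control. Leaving out each library in turn gave 25 to 48 higher and 50 to 77 lower for bFGF against OIM, 42 to 73 and 73 to 100 for bFGF against control, and 0 to 1 and 0 for OIM against control, the lowest without BFGF replicate 1 and NC replicate 2 respectively. Of 57 results for named transcripts, 42 were called, 40 of these kept their direction under every alternative and 22 held without any single library. Values that changed sign were LOC102161888 against control (-0.23) and EPB41L4A in OIM against control (-0.056), both as sums per locus, and LOC110257452 (0.088) and TROVE2 (0.051) against OIM with gene totals alone, neither of them called. By limma-voom 9 named calls against OIM were lost (adjusted p of 0.0519 to 0.235), those of LOC106510436, LOC102162937, CCNB1IP1, LOC106506539, LOC110259968, LOC100514834, LOC110261683, LOC106508330 and LOC102162931. Against control limma-voom lost 10 named calls (0.0602 to 0.186), and without a filter on low counts 5 against OIM (0.0557 to 0.144) and 4 against control (0.0566 to 0.0945) were lost. The replicate block lost the named calls of LOC102162937, CCNB1IP1, LOC110259968, LOC106508330 and LOC102162931 against OIM. Counts rounded down lost those of LOC110262097 and CCNB1IP1, and a fit of the bFGF and OIM groups alone lost LOC102162931. DESeq2 left 1, 1 and 734 transcripts without an adjusted p. The planned ratio of transcript to gene was not run. Most transcripts were near or below 1 CPM, so small changes of scarce ones may have been missed at this depth. Estimated counts also carry an uncertainty in the split among isoforms that these tests do not include.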
